A study of Rattus norvegicus with 12 samples.

Results

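The genes described here are 10 genes of MHC class II antigen presentation in the L6 dorsal root ganglion of the rat. They are RT1-Da, RT1-Db1, RT1-Ba and RT1-Bb, which code for class II chains, RT1-DMa, RT1-DMb and RT1-DOb, which code for the proteins that edit the bound peptide, Cd74 (the invariant chain), Ctss (cathepsin S) and Ciita (the class II transactivator). Every gene probe whose accession maps to one of these symbols was taken, which gave 12 of the 30367 distinct gene probes and 10 of the 15154 symbols on the array. RT1-Db1 and RT1-Bb have 2 probes each and the others 1. Of the 10 genes, 9 were well above background on all 12 arrays, and RT1-Ba was not measurable in most of them.

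Total RNA was taken from L6 ganglia, the sensory ganglia at that spinal level, of male rats of the strain Fischer 344, and each sample was hybridised to a 1-colour Agilent array. The group young_AL held 4 rats of 6 months fed ad libitum. The group old_AL held 4 rats of 25 to 28 months fed ad libitum. The group old_CR held 4 rats of the same age, 25 to 28 months, on caloric restriction: since 6 weeks old they had received food on 3 days per week, about 40% fewer calories. The series asks which inflammatory changes come with age in this tissue and whether restriction prevents them, so 3 pairs of groups were compared. The first is old_AL with young_AL (age), the second old_CR with old_AL (feeding), and the third old_CR with young_AL, which differ in both.

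The array old_AL 1 stood apart. The 75th percentile of its signals was 7662, while the other 11 arrays had 2634 to 3110. It held 4026 unevenly lit gene probe spots (1 to 208 on the others), and it correlated with the rest at a median of 0.929 (0.971 to 0.994 for the others). The comparisons of the class II genes are therefore given without it (11 arrays) and with it (12 arrays). Correlations and the levels of other genes are from 11 arrays, with values from 12 where these are named. Of the 11 arrays, old_AL 4 correlated least with the rest, at a median of 0.971. The 25th percentile of its signals was 79.7, the highest of all arrays, while old_AL 2 and old_AL 3 had 42.9 and 43.5. It was kept in the fits on 11 arrays. The young_AL arrays lie on slide 1 and all old arrays on slide 2. Age and slide cannot be told apart. On slide 2 the old_AL arrays fill row 1 and the old_CR arrays row 2, so the same holds for feeding and row. Markers of sensory neurons, the labelled tissue's defining cells, were present on every array: 12 of 13 had a probe above background, and their summed signal ran from 477 to 492 times the array's 75th percentile in young_AL, from 476 to 502 in old_AL and from 452 to 481 in old_CR on 11 arrays.

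MHC class II molecules are pairs of an alpha and a beta chain that carry peptides of ingested protein to the cell surface, where CD4+ T cells read them. In the endoplasmic reticulum the new chains bind the invariant chain Cd74, which keeps the groove closed and leads them to the endosome. There cathepsin S, a protease, trims the invariant chain, the DM pair exchanges what remains of it for a peptide, and the DO pair restrains DM. Macrophages, dendritic cells and B cells carry most class II, and in a ganglion resident macrophages lie around the neuron bodies. Ciita is the coactivator that turns on the genes of the class II chains together. It binds no DNA itself and docks on factors seated at a conserved module of class II promoters. In that module RFX binds the X box and NF-Y the Y box.

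The promoter windows of these genes are shown first. Whether these sequences bear on the levels was not tested. RefSeq windows of build GRCr8, from 250 bases before to 50 bases after each gene's start, were held for 8 of the 10 genes. RT1-DMb and Ciita had none. Both strands were searched for GNNACNG, as the core of the X box, and for GATTGG, the Y box letters, and a pair was counted where both lay on 1 strand with starts 20 to 45 bases apart. These letters and the spacing were chosen after the windows had been read. Capitals mark both motifs in 5 of the windows, each on the gene's strand:
RT1-Da (chr20:4515313-4515385, plus strand): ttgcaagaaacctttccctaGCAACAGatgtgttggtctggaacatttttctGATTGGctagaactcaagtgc
RT1-Db1 (chr20:4560223-4560294, minus strand): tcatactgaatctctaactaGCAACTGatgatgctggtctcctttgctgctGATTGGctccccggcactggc
RT1-Bb (chr20:4604160-4604231, minus strand): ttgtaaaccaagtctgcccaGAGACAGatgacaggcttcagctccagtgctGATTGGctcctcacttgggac
RT1-DMa (chr20:4712380-4712452, minus strand): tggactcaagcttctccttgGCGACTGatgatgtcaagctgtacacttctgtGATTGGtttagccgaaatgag
RT1-DOb (chr20:4627587-4627656, minus strand): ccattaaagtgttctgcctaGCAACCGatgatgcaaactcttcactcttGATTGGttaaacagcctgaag

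The pair was present in 6 of the 8 windows, those 5 and that of RT1-Ba, with starts 29 to 32 bases apart. Of all 33469 windows of this length, 1.81% held such a pair, 88.1% held GNNACNG alone or with the other and 14.8% held GATTGG. Since the letters and spacing were chosen on the members' windows, setting these shares beside them is no test. The windows of Cd74 and Ctss held GNNACNG and lacked GATTGG in these letters. The motifs overlap in none of the printed stretches. All 7 RT1 genes lie on chromosome 20 of GRCr8, Cd74 on chromosome 18, Ciita on chromosome 10 and Ctss on chromosome 2.

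Levels are given as log2 of the processed signal relative to the array's 75th percentile, so that 0 is the signal that 75% of the spots stay below. Levels of different genes come from different probes and are not compared with each other. The scale differs from array to array only by that percentile.

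Cd74, the invariant chain, measured 1.58, 0.34, 0.95 and 1.41 in young_AL 1 to 4, 2.08, 2.48, 1.84 and 1.50 in old_AL 1 to 4, and 2.0, 1.40, 0.96 and 1.08 in old_CR 1 to 4. The young_AL and old_AL groups overlapped, since old_AL 4 lay below young_AL 1. On 11 arrays the mean was 1.07 ± 0.55 (SD, n = 4) in young_AL, 1.94 ± 0.50 (n = 3) in old_AL and 1.36 ± 0.46 (n = 4) in old_CR. The level was higher by 0.87 ± 0.36 (SE) in old_AL than in young_AL, a ratio of 1.83, with an adjusted p of 0.19. On 12 arrays the difference was 0.91 ± 0.32 (adjusted p = 0.58).

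RT1-Da, the alpha chain of the class II D molecule, measured 0.14, -1.01, -0.57 and -0.14 in young_AL 1 to 4, 0.65, 1.12, 0.45 and 0.16 in old_AL 1 to 4, and 0.68, -0.01, -0.47 and -0.24 in old_CR 1 to 4. All 4 old_AL arrays lay above all 4 young_AL arrays, with old_AL 4 just above young_AL 1. The difference with age was 0.97 ± 0.35 on 11 arrays (ratio 1.96, adjusted p = 0.15) and 0.99 ± 0.32 on 12 arrays (adjusted p = 0.57).

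RT1-Db1, a beta chain that pairs with the alpha chain of D, measured 1.76, 0.72, 1.30 and 1.74 in young_AL 1 to 4, 2.40, 2.71, 2.10 and 1.93 in old_AL 1 to 4, and 2.49, 1.82, 1.40 and 1.57 in old_CR 1 to 4 with its brighter probe. Here too all 4 old_AL arrays were above the young ones, and old_CR spanned both. With age the difference came to 0.86 ± 0.33 on 11 arrays (ratio 1.82, adjusted p = 0.16) and 0.90 ± 0.30 on 12 arrays (adjusted p = 0.58). The dimmer probe gave 0.94 ± 0.37 on 11 arrays (adjusted p = 0.18) and 0.62 ± 0.41 on 12 arrays (adjusted p = 0.58). With it the young_AL and old_AL groups overlapped: old_AL 4 at 0.24 lay below young_AL 1 at 0.32, and old_AL 1 was at -0.59. On old_AL 1 the probes of this gene parted: the brighter one stood 2.98 above the dimmer one, against 1.42 to 1.78 on the other 11 arrays. RT1-Db2, a relative of RT1-Db1, had no matched probe, and whether its RNA reaches the RT1-Db1 probes was not tested.

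RT1-Bb, the beta chain of the class II B molecule, measured 0.80, -0.49, 0.23 and 0.71 in young_AL 1 to 4, 0.21, 1.71, 1.15 and 0.69 in old_AL 1 to 4, and 1.36, 0.85, 0.24 and 0.43 in old_CR 1 to 4 with its brighter probe. The groups overlapped, and old_AL 1 lay at the level of young_AL 3. The difference with age was 0.87 ± 0.38 on 11 arrays (ratio 1.83, adjusted p = 0.21) and 0.63 ± 0.38 on 12 arrays (adjusted p = 0.58). The dimmer probe gave 0.81 ± 0.38 on 11 arrays (adjusted p = 0.24) and 0.43 ± 0.44 on 12 arrays (adjusted p = 0.59), and its gap to the brighter one was 2.40 on old_AL 1, against 1.70 to 2.0 on the other arrays.

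RT1-Ba, the alpha chain that pairs with RT1-Bb, did not rise above background on most arrays. It has 2 spots per array, and 1 of the 2 was well above background on old_AL 3 and on old_AL 4, at processed signals of 245 and 131, while the partner spots on the same arrays read 5.86 and 8.01. Neither spot was well above background on any other array. It therefore failed the filter and was not tested, and it counts as a member without a measurement. The file gives no reason for the single bright spots, and that was not tested.

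**Figure D1:**
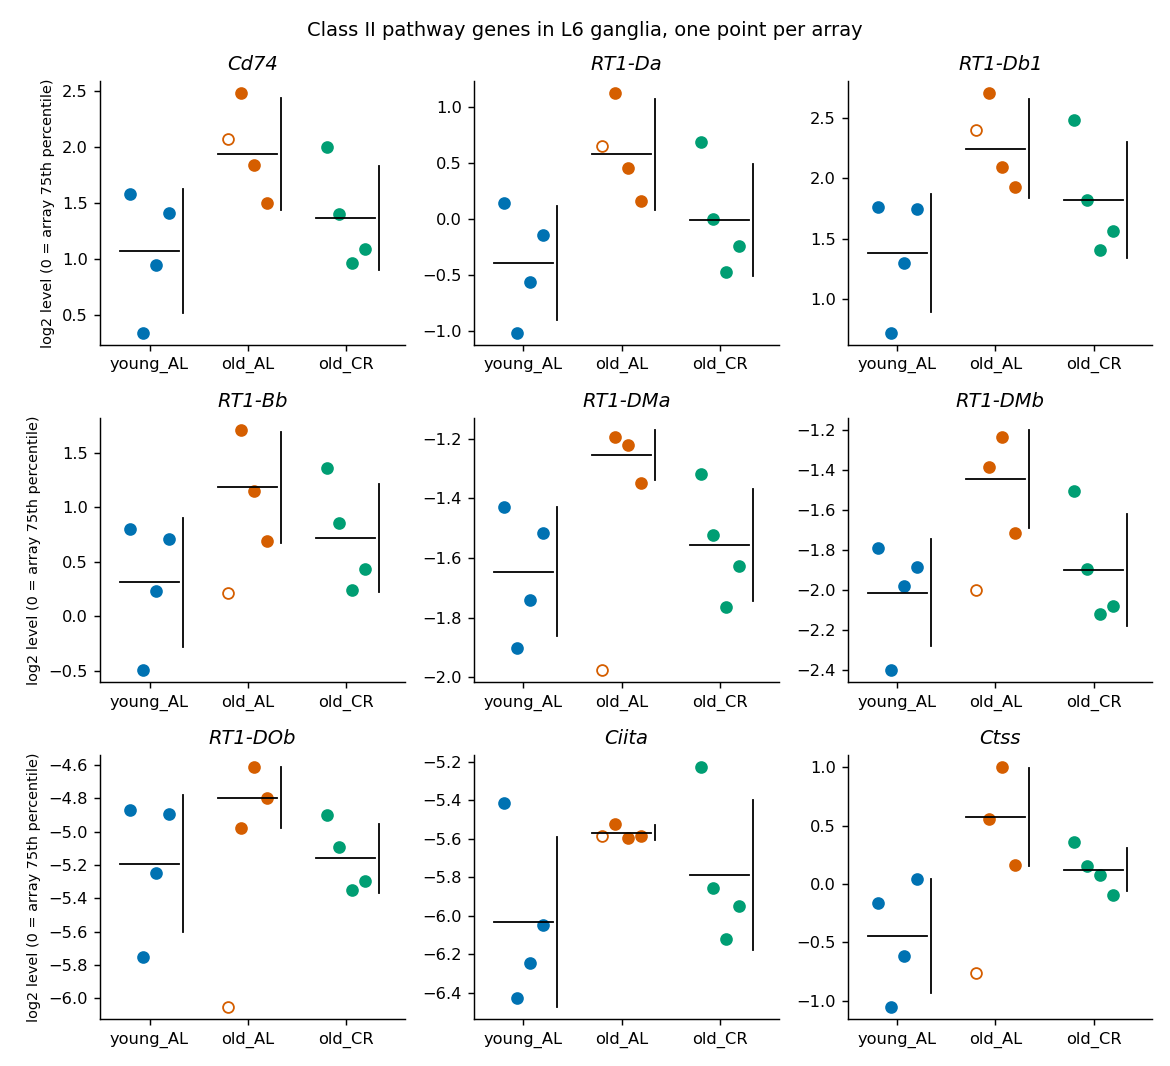
Levels of the 9 measured genes, log2 of the processed signal relative to each array's 75th percentile (vertical axis), by group (horizontal axis). Each point is 1 array, the open point is old_AL 1, and the bars are the mean and SD without it. For RT1-Da and the brighter probe of RT1-Db1 all old_AL points lie above all young_AL points. For RT1-Bb, RT1-DMa, RT1-DMb, RT1-DOb, Ciita and Ctss the open point falls among the young values or below them.

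The peptide-editing genes differed by smaller steps. RT1-DMa, the alpha chain of DM, measured -1.43, -1.90, -1.74 and -1.51 in young_AL 1 to 4, -1.98, -1.19, -1.22 and -1.35 in old_AL 1 to 4, and -1.32, -1.52, -1.76 and -1.63 in old_CR 1 to 4. RT1-DMb, its beta chain, measured -1.79, -2.40, -1.98 and -1.89 in young_AL 1 to 4, -2.0, -1.39, -1.24 and -1.71 in old_AL 1 to 4, and -1.51, -1.90, -2.12 and -2.08 in old_CR 1 to 4. Without old_AL 1 the young_AL and old_AL groups of both genes did not overlap, and with it they did. With age the difference came to 0.39 ± 0.13 for RT1-DMa (ratio 1.31, adjusted p = 0.12) and 0.57 ± 0.19 for RT1-DMb (ratio 1.48, adjusted p = 0.12) on 11 arrays. On 12 arrays it was 0.21 ± 0.19 and 0.43 ± 0.21, both with an adjusted p of 0.58.

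RT1-DOb, the beta chain of DO, ranged from -5.76 to -4.87 in young_AL, from -4.98 to -4.61 in the 3 old_AL arrays other than old_AL 1, and from -5.35 to -4.90 in old_CR. It was -6.05 on old_AL 1, the lowest value of all 12 arrays, where a share of 0.5 of its spots was well above background. The difference with age was 0.40 ± 0.21 on 11 arrays (adjusted p = 0.29) and 0.082 ± 0.31 on 12 arrays (adjusted p = 0.88). Its partner RT1-DOa, which is no member, was tested as well and gave 0.62 ± 0.49 on 11 arrays (adjusted p = 0.46) and 0.48 ± 0.44 on 12 (adjusted p = 0.58), and under quantile normalization its value on 11 arrays was -0.19.

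Ctss, the protease that trims the invariant chain, measured -0.16, -1.05, -0.62 and 0.04 in young_AL 1 to 4, -0.76, 0.55, 1.0 and 0.16 in old_AL 1 to 4, and 0.36, 0.16, 0.07 and -0.09 in old_CR 1 to 4. Without old_AL 1 the old_AL values were all above the young ones. With age the difference came to 1.02 ± 0.27 on 11 arrays, with a 95% interval from 0.41 to 1.63, a ratio of 2.03 and an adjusted p of 0.072, the lowest among the 9 genes. On 12 arrays it was 0.69 ± 0.35 with an adjusted p of 0.58.

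Ciita, the coactivator, measured -5.41, -6.43, -6.24 and -6.05 in young_AL 1 to 4, -5.59, -5.52, -5.60 and -5.58 in old_AL 1 to 4, and -5.23, -5.85, -6.12 and -5.95 in old_CR 1 to 4. The old_AL arrays lay close together, above 3 of the 4 young arrays and below young_AL 1. The difference with age was 0.47 ± 0.26 on 11 arrays (adjusted p = 0.30) and 0.46 ± 0.23 on 12 arrays (adjusted p = 0.58).

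Taking the 9 genes as a group, the mean of old_AL was above that of young_AL for all 9 on 11 arrays, by 0.39 to 1.02 with a median of 0.86, where the median of all 20849 genes tested was 0.035 and 59.2% of them were higher in old_AL. All genes tested include accessions without a matched symbol, each counted as a gene. Under quantile normalization 8 of the 9 members were above 0 and Ciita was at -0.074. None of the 9 passed an adjusted p of 0.05 by limma, a threshold that 3.24% of all genes passed. Of the genes that passed, 61.5% were higher in old_AL, a split that turned with the scaling: 22.9% were higher under quantile normalization and 9.43% under median centring, where the median of all genes moved to -0.051 and -0.13. The members stood at 0.23 to 0.86 under median centring. At an unadjusted p under 0.05, 7 of the 9 were higher in old_AL, all but Ciita and RT1-DOb, against 14.5% of all genes. The groups were fully apart, with old_AL higher, for 5 of the 9 (Ctss, RT1-Da, RT1-Db1, RT1-DMa and RT1-DMb), against 11.9% of all genes. For RT1-Db1 this held with its brighter probe alone. The members were chosen with earlier results of these data known, so their counts describe them and are not a test of the group. In whole ganglia, more class II cells and more class II RNA per cell cannot be told apart.

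With old_AL 1 included the differences with age ran from 0.082 to 0.99 on 12 arrays, all 9 again above 0, where 44.0% of all genes were. None passed by limma's adjusted p, which 0.0191% of all genes did. At an unadjusted p under 0.05, 3 of the 9 were higher (Cd74, RT1-Da and RT1-Db1), against 4.12% of all genes, and 2 of the 9 had groups fully apart (RT1-Da and RT1-Db1), against 4.26%. RT1-Db1 met both rules with its brighter probe alone. The array weight that limma fits to old_AL 1 was 0.00668, the lowest of the 12. On 11 arrays the lowest weight was that of old_AL 4, at 0.22. With such weights, 3 of the 9 passed on 12 arrays (Ctss, RT1-DMa and RT1-DMb) and 2 on 11 arrays (Ctss and RT1-DMb), where 7.44% and 7.27% of all genes passed. With normexp background correction 4 of the 9 passed on 11 arrays (Ciita, Ctss, RT1-DMa and RT1-DMb), where 18.4% of all genes did, and none on 12 arrays.

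Under caloric restriction the means of all 9 genes lay below those of old_AL on 11 arrays, with differences from -0.59 to -0.22 and a median of -0.45, where the median of all genes was -0.054 and 62.9% of them were lower in old_CR. Under quantile normalization 2 of the 9 turned, RT1-DOb to 0.046 and Ciita to 0.35. None of the 9 passed, with adjusted p from 0.17 to 0.59, and 1.06% of all genes did. Of those that passed, 25.2% were higher in old_CR, against 69.5% under quantile normalization and 92.2% under median centring. At an unadjusted p under 0.05, 2 of the 9 were lower, RT1-DMb at -0.46 ± 0.19 (95% interval from -0.88 to -0.029, adjusted p = 0.17) and RT1-DMa at -0.30 ± 0.13 (-0.59 to -0.012, adjusted p = 0.18), against 19.2% of all genes. The share among the members is close to that background. No member had groups that were fully apart, against 15.3% of all genes, because old_CR 1 lay above the lowest old_AL array for each of them.

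The class II chains and Cd74 had wide intervals in that comparison. Cd74 differed by -0.58, with a 95% interval from -1.38 to 0.23, and RT1-Da by -0.59, with an interval from -1.38 to 0.21. RT1-Db1 differed by -0.42 (from -1.16 to 0.32), RT1-Bb by -0.46 (from -1.31 to 0.39) and Ctss by -0.45 (from -1.06 to 0.16). Each of these intervals includes 0. On 12 arrays the means of all 9 were again below old_AL, with differences from -0.61 to -0.051, where 45.3% of all genes were, none passed by limma (0.00478% of all genes did), and none had an unadjusted p under 0.05, which 4.48% of all genes did.

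Against young_AL, the old_CR means were higher for all 9 genes, by 0.032 to 0.57 on 11 arrays, where 44.3% of all genes were higher. None passed (2.41% of all genes did), none had groups fully apart (5.59%), and 1 of the 9, Ctss at 0.57 ± 0.25 (95% interval from 0.0096 to 1.14, adjusted p = 0.27), had an unadjusted p under 0.05, against 6.83% of all genes. On 12 arrays all 9 were again higher (44.3% of all genes), none passed (0.0191%) and none had an unadjusted p under 0.05 (0.984%). For all 9 genes the means therefore stood in the order young_AL, old_CR, old_AL from low to high, on 11 arrays and on 12, except for Ciita and RT1-DOb under quantile normalization and RT1-DOb on 12 arrays under normexp, an order that 20.1% and 18.8% of all genes had. No neighbouring pair in that order differed by limma's adjusted p for any of the 9. The comparisons share their groups, so this order is not independent of the differences above.

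**Figure D2:**
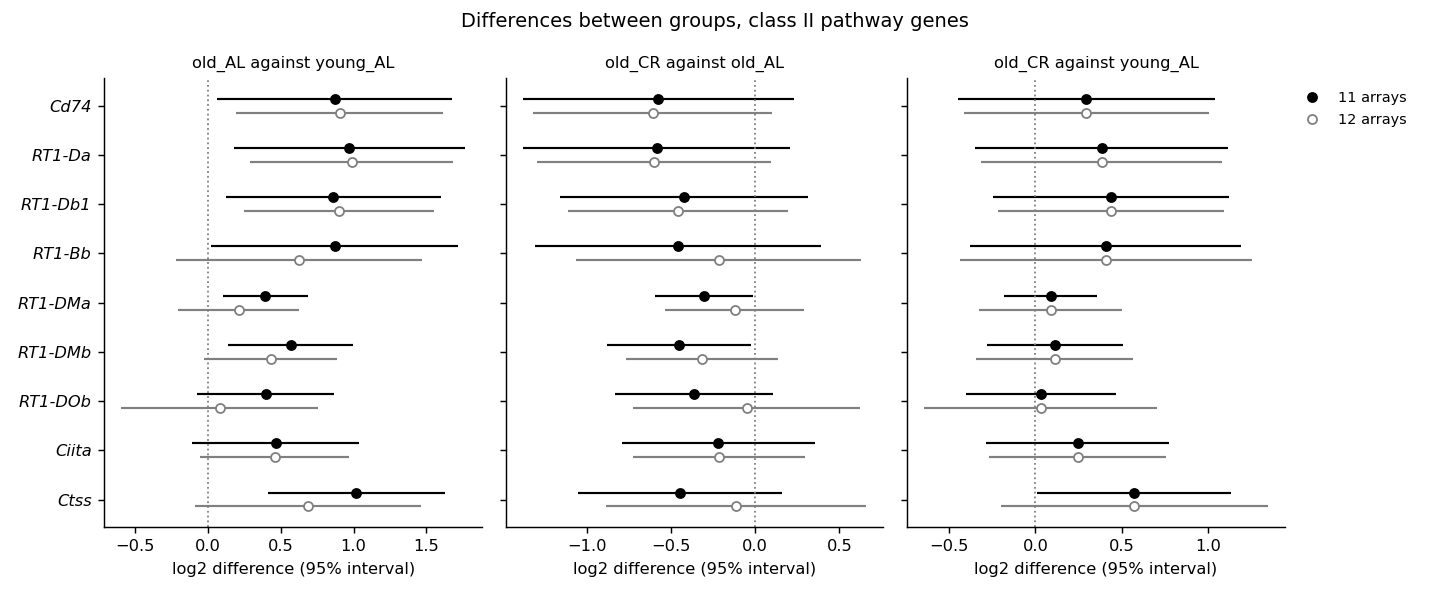
Differences between groups on the log2 scale (horizontal axis) with 95% intervals for the 9 genes (vertical axis), in 3 panels by comparison. Filled points are from 11 arrays and open points from 12, which include old_AL 1. In the panel of old_AL against young_AL the intervals of Cd74, RT1-Da and RT1-Db1 lie above 0 in both, and none of the genes passed after adjustment over all genes.

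The spread between rats of 1 group was wide for most of these genes. The residual SD of the fit on 11 arrays was 0.54 for RT1-Bb, 0.51 for Cd74, 0.50 for RT1-Da and 0.47 for RT1-Db1, and the median over the 9 genes was 0.38, where the median over all genes was 0.10. Between 7.10% and 9.20% of all genes had a larger one than those 4. RT1-DMa had the smallest at 0.18, which 29.9% of all genes exceeded. Within young_AL the level of Cd74 ran from 0.34 in young_AL 2 to 1.58 in young_AL 1, a step wider than its mean difference with age.

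The same rats were high or low for nearly every gene. In young_AL, young_AL 2 was the lowest for all 9 genes and young_AL 1 the highest for 8, Ctss being highest in young_AL 4. In old_CR, old_CR 1 was the highest for all 9 and old_CR 3 the lowest for 8. In old_AL on 11 arrays, old_AL 2 was the highest for 6 and old_AL 4 the lowest for 7.

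Cd74 and the class II chains moved almost as 1 signal. Over the 11 arrays the level of Cd74 ranged over 2.14, while RT1-Da minus Cd74 ranged over 0.23, RT1-Bb minus Cd74 over 0.28 and RT1-Db1 minus Cd74 over 0.30. The Pearson correlation with Cd74 was 0.993 for RT1-Da, 0.991 for RT1-Bb and 0.985 for RT1-Db1, with Spearman's rho of 0.982, 0.936 and 0.955. Each had a permutation p of 1e-05, the smallest that 100000 permutations can give, and an adjusted p of 2e-05 over the 8 relations with Cd74 that were computed. Without the 2 arrays farthest from the median of Cd74, young_AL 2 and old_AL 2, the correlations of these 3 genes were 0.984, 0.980 and 0.960. Among the 7 arrays of slide 2 alone they were 0.997, 0.987 and 0.986, and for deviations from the group means they were 0.992, 0.994 and 0.990. Among 12347 genes with a matched symbol, ranked by this correlation, they took the top 3 places.

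The other members followed Cd74 less closely. RT1-DMa had a correlation of 0.950 (rho 0.973, permutation p = 1e-05), RT1-DMb of 0.920 (rho 0.936, p = 0.00012) and Ciita of 0.857 (rho 0.909, p = 0.00068). Ctss had one of 0.825 (rho 0.791, permutation p = 0.0025) and RT1-DOb one of 0.789 (rho 0.736, p = 0.0039). Adjusted over the 8 relations, the Pearson p-values of these genes were at most 0.0039 and the Spearman ones at most 0.013. Without the 2 farthest arrays the correlations were 0.942 for RT1-DMa, 0.891 for RT1-DMb, 0.894 for Ciita, 0.707 for Ctss and 0.849 for RT1-DOb. On slide 2 alone they were 0.909, 0.878, 0.814, 0.687 and 0.620 in the same order. RT1-DMa ranged over 0.71 on the log2 scale and Cd74 over 2.14, so a high correlation went with steps of unlike size. The levels on 1 array share that array's labelling and scaling.

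**Figure D3:**
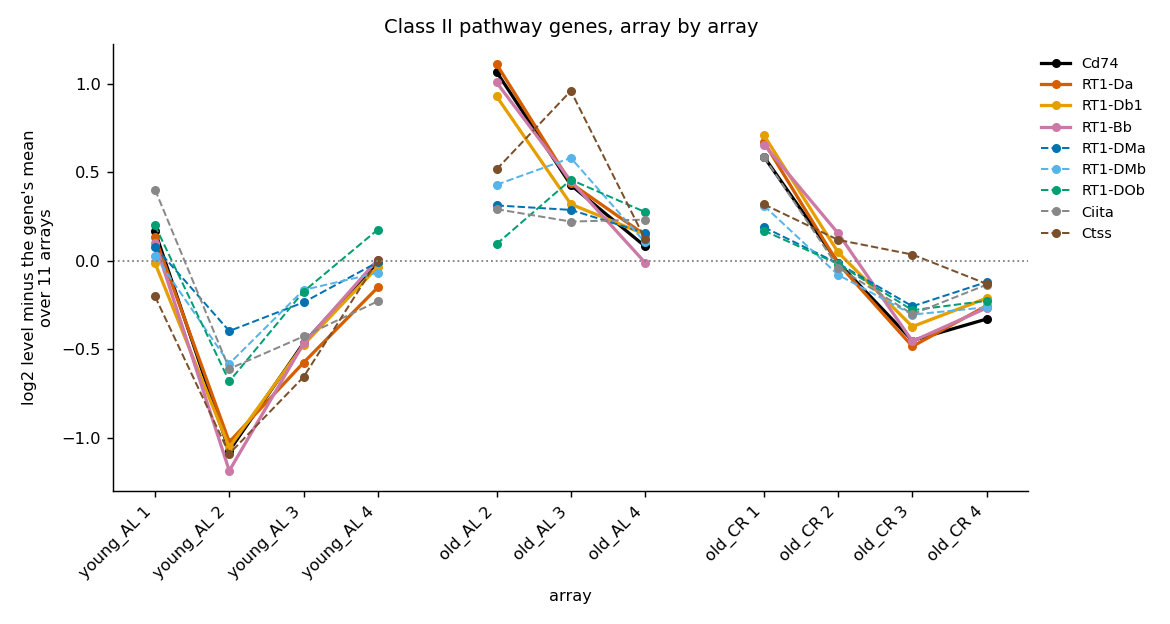
Level of each of the 9 genes minus its mean over 11 arrays (vertical axis, log2) on each array (horizontal axis). Solid lines are Cd74 and the class II chains, broken lines the other genes, and lines join arrays of 1 group to aid the eye, since replicates have no order. The 4 solid lines nearly coincide, with young_AL 2 lowest and old_AL 2 and old_CR 1 highest.

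The genes most like Cd74 over the 11 arrays, members aside, were RT1-A1 (r = 0.971), RT1-CE16 (0.966), Pycard (0.964), Fcer1g (0.963), Gpr18 (0.961), RT1-CE2 (0.959), RT1-CE5 (0.958), Ptprc (0.957), Rac2 (0.953) and Psmb8 (0.952). Of these, 4 are class I genes of the rat MHC, which are close copies of each other, so their probes may not tell them apart. Ptprc codes for CD45, the surface phosphatase of white blood cells, Fcer1g for the signalling chain of Fc receptors, and Psmb8 for a subunit of the immunoproteasome. RT1-A1 ranged over 0.61 and Ptprc over 1.63 across these arrays. None of the 10 passed with age, with differences from 0.27 to 0.96. The genes that ran most opposite to Cd74 were Saraf (-0.926), Cs (-0.912), Rcn2 (-0.907), Caap1 (-0.906) and Prepl (-0.898), each with a range of at most 0.27 on the log2 scale. These genes were picked for their correlation, so no p is given.

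Genes around the class II pathway were counted in lists by role. Of 16 genes of endolysosomal processing, all were tested and none passed with age on 11 arrays, with a median difference of 0.036. Ctsb, a cysteine protease of the lysosome, differed by 0.13 ± 0.036 (adjusted p = 0.080), and Cst7, which codes for the protease inhibitor cystatin F, by 0.33 ± 0.095 (adjusted p = 0.086). Ctsz, another cathepsin, was the member of that list with the smallest p, at -0.27 ± 0.070 with age (adjusted p = 0.069), and it was the single gene of the list that fell in old_CR against young_AL, at -0.41 ± 0.065 (adjusted p = 0.019) on 11 arrays. On 12 arrays it did not pass (-0.41 ± 0.26, adjusted p = 1.0), nor under median centring on 11 (adjusted p = 0.078). Its correlation with Cd74 over 11 arrays was -0.0086.

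Of 12 genes of class II transcription, 9 were tested and none passed in any comparison, with a median of 0.0038 with age. Spi1, which codes for the myeloid and B cell factor PU.1, differed by 1.45 ± 0.34 on 11 arrays with an adjusted p of 0.052, and it passed under quantile normalization, median centring and normexp, as Ctsz did in the direction of its difference with age. Irf8, another factor of myeloid cells, differed by 0.66 ± 0.39 (adjusted p = 0.34). Nfyc, a subunit of NF-Y, differed by 0.095 ± 0.066 (adjusted p = 0.41), and Rfxap, a subunit of RFX, by -0.078 ± 0.051 (adjusted p = 0.38).

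Of 12 genes of interferon gamma signalling, 8 were tested and none passed, with a median of 0.079 with age. Ifng itself had no measurable probe. Of 14 genes of T cell costimulation and partners, 6 were tested and none passed, with a median of 0.47 on 11 arrays and 0.055 on 12. Cd4, the coreceptor that reads class II, differed by 0.65 ± 0.20 (adjusted p = 0.10), Cd3e, a chain of the T cell receptor complex, by 2.31 ± 0.78 (adjusted p = 0.13) and Lag3, another receptor for class II, by 0.64 ± 0.28 (adjusted p = 0.22). Cd3e was well above background on 6 of the 12 arrays, with levels from -9.37 to -4.02, so its difference rests on values near background. Cd80 and Cd86, the costimulatory ligands of presenting cells, were not tested. Of 10 genes of the class I pathway, 8 were tested and none passed, with a median of 0.18 on 11 arrays and 0.059 on 12. B2m, the light chain of class I, differed by 0.18 ± 0.048 (adjusted p = 0.074) and Psmb9, an immunoproteasome subunit, by 0.51 ± 0.17 (adjusted p = 0.12). Under normexp, where 18.4% of all genes passed with age on 11 arrays, Cd4, Cd3e, Lag3 and B2m were higher and passed.

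Markers of the cells that carry class II were read on the same arrays. Of 18 macrophage markers, all were tested, and 5 rose with age on 11 arrays, where 3.24% of all genes passed: Lyve1 by 1.09 ± 0.15 (adjusted p = 0.013), Fcgr2b by 1.33 ± 0.25 (adjusted p = 0.033), Cd163 by 1.81 ± 0.35 (adjusted p = 0.034), Mrc1 by 1.13 ± 0.23 (adjusted p = 0.038) and Tyrobp by 0.84 ± 0.19 (adjusted p = 0.048). The other 13 did not pass, 17 of the 18 differences were above 0, and their median was 0.82. None of the 18 passed on 12 arrays, where the median was 0.57. In old_CR against old_AL none passed, with a median of -0.44, and in old_CR against young_AL Lyve1 and Fcgr2b rose on 11 arrays, by 0.82 ± 0.14 and 1.32 ± 0.23, and passed on 12 arrays in neither case. Under quantile normalization Mrc1 did not pass with age (adjusted p = 0.19). The summed macrophage signal, in multiples of the array's 75th percentile, ran from 11.4 to 15.8 in young_AL, from 18.0 to 23.3 in old_AL and from 13.9 to 18.3 in old_CR, with young_AL 2 the lowest of all 11 arrays. Its part in the class II levels was not tested.

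Of 11 dendritic cell markers, 5 were tested and none passed with age. Their median difference was 0.65 on 11 arrays and 0.37 on 12, and their summed signal ran from 0.410 to 0.724 in young_AL, from 0.748 to 1.11 in old_AL and from 0.575 to 0.871 in old_CR. Most of that sum was Clec10a, at -1.46 to 0.047 on the log2 scale, while the other tested markers reached at most -4.20. Itgax, Flt3, Cd207 and Siglech had no matched probe, Xcr1 was not well above background on any array and Itgae on 1. Of 9 B cell markers, 3 were tested and none passed, with a median of 0.20 on 11 arrays and 0.018 on 12. Their summed signal was 0.323 to 0.356 in young_AL, 0.351 to 0.455 in old_AL and 0.282 to 0.341 in old_CR. Most of that sum was Pax5, at -2.16 to -1.35 on the log2 scale, while the other tested B cell markers reached at most -4.05. Cd79b was well above background on 2 of the 12 arrays, Blk and Cr2 on 1, and Ms4a1, Cd79a and Jchain had no matched probe.

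Of the T cell markers, all 10 were tested. With age, 2 rose on 11 arrays, Cd8a by 2.21 ± 0.34 (adjusted p = 0.019) and Cd6 by 0.79 ± 0.18 (adjusted p = 0.049), and all 10 differences were above 0 with a median of 0.85. On 12 arrays 8 of the 10 were above 0, with a median of 0.58. Under quantile normalization Cd8a did not pass (adjusted p = 0.066), and under normexp its difference was 0.99. Their summed signal ran from 0.535 to 0.753 in young_AL, from 0.986 to 1.18 in old_AL and from 0.680 to 1.08 in old_CR. Of 5 neutrophil markers tested out of 8, Camp and Ngp rose with age, by 2.28 ± 0.20 (adjusted p = 0.0033) and 2.26 ± 0.32 (adjusted p = 0.015). Ngp was well above background on 9 of the 12 arrays, and under normexp its difference was 0.89. The neutrophil sum ran from 0.392 to 1.01 in young_AL, from 0.930 to 3.06 in old_AL and from 1.36 to 1.92 in old_CR. Erythroid markers, a measure of blood in the tissue, summed to 69.2 to 101 in young_AL, 83.4 to 121 in old_AL and 72.2 to 75.9 in old_CR, so that old_AL and old_CR did not overlap. Most of that sum was Hbb, at 6.09 to 6.82 on the log2 scale, while the other tested erythroid markers reached at most 2.20. None of the 4 erythroid markers tested passed in any comparison on 11 arrays, except that under normexp Hbb was lower in old_CR than in old_AL and passed. No T cell, neutrophil or erythroid marker passed with age on 12 arrays. The part of these cells in the class II levels was not tested.

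**Figure D4:**
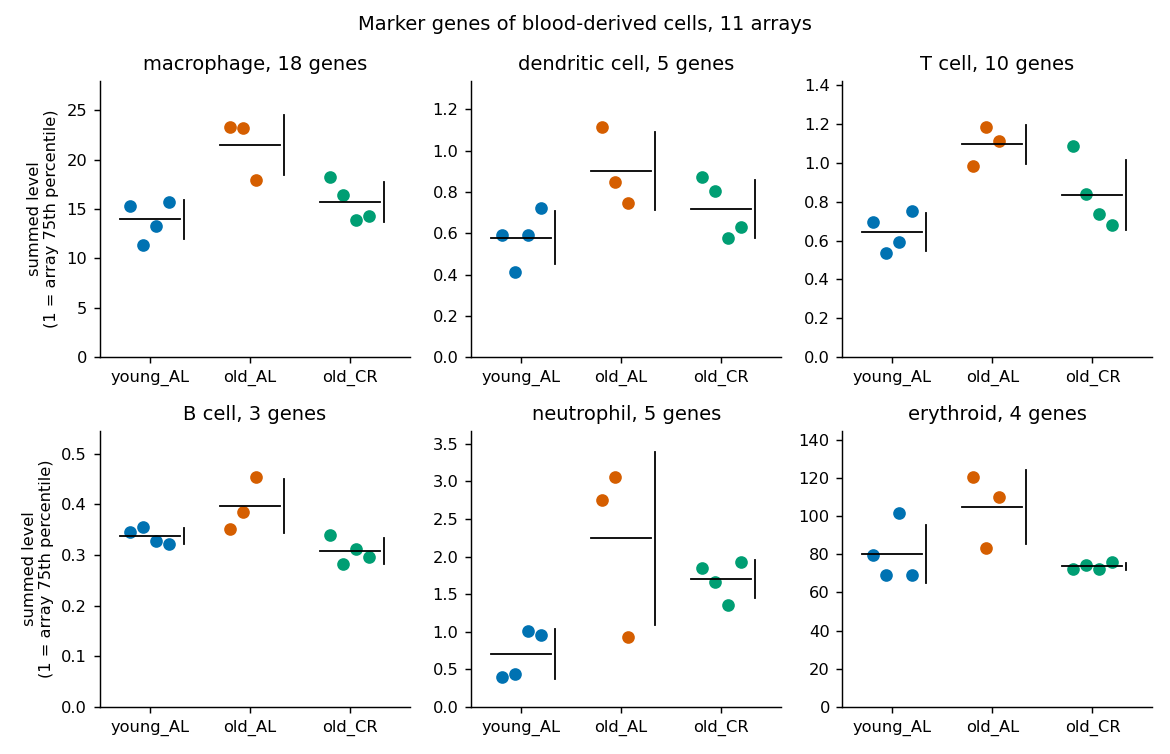
Summed signal of the marker genes of 6 blood-derived cell types (vertical axis, in multiples of the array's 75th percentile, starting at 0) by group on 11 arrays (horizontal axis). Each point is 1 array and the bars are the mean and SD. The macrophage, dendritic cell and T cell sums of old_AL lie above those of young_AL without overlap on these arrays. The B cell, neutrophil and erythroid sums of these 2 groups overlap. On old_AL 1, which is not drawn, the dendritic cell and T cell sums were 0.338 and 0.348, below every young_AL array. Its macrophage sum was 62.2, above every young_AL array.

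Of the resident cells' markers, those of satellite glia and endothelium had no gene that passed with age, and neither did those of myelinating Schwann cells or fibroblasts. Under median centring on 11 arrays, 2 satellite glia, 3 Schwann cell and 3 fibroblast markers were lower and passed. In that setting 16.3% of all genes passed with age, 9.43% of these higher, and the median of all genes was -0.13. Among 12 sensory neuron markers, 3 fell with age on 11 arrays: Nefl at -0.31 ± 0.041 (adjusted p = 0.013), Nefh at -0.25 ± 0.050 (adjusted p = 0.036) and Isl1 at -0.19 ± 0.041 (adjusted p = 0.048). On 12 arrays none of the 12 passed and their median turned from -0.015 to 0.18. Other comparisons called markers on 11 arrays as well, and on 12 arrays no marker passed in any comparison. In old_CR against young_AL the neutrophil gene Camp rose by 1.69 ± 0.19, while Nefl, Nefh, the glial genes Fabp7 and Slc1a3, the myelin gene Pmp22 and the collagen gene Col1a1 fell, with differences of -0.21, -0.22, -0.60, -0.40, -0.30 and -0.92. Of these, Nefl, Nefh and Pmp22 did not pass under quantile normalization or median centring. In old_CR against old_AL, Isl1 rose by 0.31 ± 0.041 and Slc1a3 fell (-0.36 ± 0.053). Slc1a3 did not pass there under median centring. The myelinating Schwann cell sum ran from 147 to 165 in young_AL, from 125 to 151 in old_AL and from 124 to 143 in old_CR. The part of these cells in the class II levels was not tested either.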

How the data were processed

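Total RNA of L6 dorsal root ganglia from 12 rats, 4 in each of 3 groups, was measured on 12 1-colour arrays. Each deposited file gives linear spot intensities, already background-subtracted by the authors' scanner software (Agilent Feature Extraction 10.7), per the file headers and the submitters' processing notes, with no scaling between arrays. The deposited series table holds the same intensities. Other columns used are the scanner's flags per spot, per the file headers.

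From these, the level was computed as log2 of the ratio of the processed intensity to the 75th percentile of that array. Control spots were left out, uneven or outlying spots were dropped and saturated ones kept, and a probe's spots were averaged. A probe had to be well above background on at least 4 arrays, and a gene is represented by its brightest probe. Names come from RefSeq GRCr8 by accession (17998 of 30367 probes matched), used for names alone, since the array files carry an older build. An accession without a matched symbol counts as a gene of its own. Counts and shares of all genes therefore include such accessions. Promoter windows are RefSeq's.

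The test was limma (version 3.58.1, lmFit and eBayes, in R 4.3.3) over all genes, with Benjamini-Hochberg adjustment and a threshold of 0.05, and the fit was tested on simulated data. Differences are log2 ± SE and n counts arrays, which limit the precision. The labels give 4 rats and 4 samples per group and do not state that each array is 1 rat, which is read here from these counts. P-values measure the spread between these 12 samples. Correlations used 100000 permutations (two-sided) in Python 3.11.15 with scipy 1.17.1. Named genes are all members, up to 4 per pathway list in order of the smallest p with age on 11 arrays, the markers that passed on 11 arrays, and the 10 genes most and 5 least correlated with Cd74. The members, the lists, the second fit without old_AL 1 and this rule were chosen with earlier results of these data known. Alternatives were quantile normalization, median centring, normexp with an offset of 50 on median spot signals, other probe filters, probes averaged per gene or taken singly, the series table, fits of only 2 groups, array weights, an intensity trend, a block for the replicate number, and leaving out each array. Other scalings of the pathway and marker lists were chosen after seeing the data.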

Additional observations from a re-analysis of the deposited data

Results flagged for a closer look

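Ciita in old_AL was the single group, out of 30 groups of 4 arrays examined (10 genes in 3 groups), in which 1 array lay far from the rest for the width of its group. old_AL 2 had the highest level, -5.52, and the nearest of the other 3 stood at -5.58, so that the gap made up 0.84 of the group's range, above Dixon's 95% critical value for 4 samples. Chance gives such a gap in about 1 of 20 groups. The whole group spans less than 0.1 on the log2 scale, from -5.60 to -5.52.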

How the results depend on the processing

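No member passed limma's adjusted p of 0.05 in any comparison, on 11 or on 12 arrays, and none did when any single array was left out (0 to 0 in every comparison) or under quantile normalization, median centring, the other probe filters, probes averaged per gene or taken singly, the series table or the compared groups alone. Calls appeared under 3 settings. In old_AL against young_AL on 11 arrays, normexp called 4 genes, an intensity trend 1 (Ctss), where 5.22% of all genes passed, and array weights 2. On 12 arrays array weights called 3 with age, and in old_CR against old_AL they called 1 on 11 arrays and 1 on 12 arrays, RT1-DMb each time, at -0.63 (adjusted p = 0.048) and -0.62 (adjusted p = 0.044), where 10.5% and 9.46% of all genes passed, close to the members' share. Normexp also raised the share of all genes called with age from 3.24% to 18.4% and the share of higher ones among them from 61.5% to 86.3%, while quantile normalization lowered that share to 22.9% (of 1067 genes called) and median centring to 9.43% (of 3404). The cause was not tested. Without old_AL 4, the median of all genes with age on 11 arrays moved from 0.035 to 0.0077. The genes called in old_CR against old_AL fell from 222 to 2 without old_AL 4, and to 1 without old_CR 4. The differences of the least bright genes changed sign in places. Under quantile normalization Ciita gave -0.074 with age and 0.35 in old_CR against old_AL, and RT1-DOb gave 0.046 there, on 11 arrays. On 12 arrays RT1-DOb gave 0.031 in old_CR against old_AL under quantile normalization, and under normexp -0.0049 with age and 0.026 in old_CR against old_AL. Leaving out 1 array gave ranges that include 0 on 12 arrays for RT1-DOb with age (-0.10 to 0.40), and in old_CR against old_AL for RT1-DOb (-0.36 to 0.11), RT1-Bb (-0.46 to 0.038) and Ctss (-0.45 to 0.14). In old_CR against young_AL the ranges for RT1-DMb (-0.019 to 0.19) and RT1-DOb (-0.16 to 0.14) include 0 on 11 and on 12 arrays. Pairing by replicate number was weak at most, since deviations of same-numbered arrays correlated from -0.089 to 0.087 on 11 arrays. In old_CR against old_AL these ran from 0.032 to 0.087, each above the highest correlation with another number. On slide 2 the replicate number is also the column on the slide. The replicate numbers are those of the source names, and the sample titles number the same samples differently. The number is therefore not known to pair animals. With the replicate number as a block, 0 members passed in each comparison, and Cd74 differed with age by 1.06 on 11 arrays and 0.91 on 12. Signal limits RT1-Ba, which stayed near background, and Ciita and RT1-DOb, which lay far below the 75th percentile.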
